A study of Danio rerio with 19 samples.

Results

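Genes of cytokine, interferon and Toll-like signalling were taken by symbol from RNA sequencing tables of whole zebrafish larvae. The rule kept symbols that begin with irf, stat, il, ccl, ccr, socs or tlr and a digit, symbols that begin with cxcl, cxcr, tnf or nfkb, and mxa to mxg, isg15 and rsad2. It found 198 gene IDs, with 194 symbols, among the 26507 gene IDs of 3 count tables. Of these, 133 held enough reads to be tested in at least 1 comparison and 115 in all 3 comparisons with the control, while 65 were never tested and held at most 88 reads each over the 15 libraries with counts.

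The series exposed zebrafish larvae to atorvastatin (AVS), a statin that blocks HMG-CoA reductase in the sterol pathway, or to afidopyropen (Afid), which disturbs TRPV channels of insects and serves as an insecticide. The control, labelled ERM, held 4 libraries and no compound. AVS low (0.1 µg/L) held 4 libraries, AVS high (1.0 µg/L) 4, Afid low (0.1 µg/L) 3 and Afid high (1.0 µg/L) 4. No genotype, strain or age is stated in the labels. They give whole larvae as the material, so each value averages over all tissues, and they do not say whether replicates are separate clutches or tanks, so a p-value here speaks of the spread among libraries, part of which may be technical. Read counts were used for 15 libraries of 4 groups, and Afid high enters through the authors' deposited fold changes and p-values. The same 4 control libraries stand in every comparison with the control.

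Cytokines are secreted signals of immune and other cells. Many interleukins and the interferons bind paired receptors, whose Janus kinases phosphorylate STAT transcription factors, and the SOCS proteins are induced by STATs and damp the same receptors. Toll-like receptors recognise microbial molecules and, like the receptors of tumour necrosis factor and interleukin 1, release NF-kB from its IkB inhibitors and activate interferon regulatory factors (IRFs). Interferons in turn induce antiviral effectors such as the Mx GTPases, rsad2 (viperin) and the ubiquitin-like modifier isg15. In larvae, innate immune cells carry much of this signalling before lymphocytes mature, and chemokines such as Cxcl12 also guide migrating cells during development.

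The 15 libraries held 8.63 to 18.6 M reads in genes. The members together took 0.199% to 0.239% of these reads in AVS low, 0.170% to 0.201% in the control, 0.177% to 0.190% in AVS high and 0.194% to 0.223% in Afid low. These are shares of raw reads. Summed over the members in CPM (read counts scaled to library size), group medians were 2142 in AVS low, 1994 in AVS high, 1901 in the control and 1885 in Afid low. Each exposed range overlapped the control, and the order of the groups depends on the measure. Control replicate 2 stood apart from the other controls, with the lowest summed level of liver, exocrine pancreas and intestine markers and the highest of neuron markers. Its intestine markers summed to 844 CPM, against a median of 2398 CPM in the control group. It is also the lowest control library for many of the genes below, so the counts of members are given without it as well. The share of all genes is not given for fits that leave out a library.

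In control larvae NF-kB genes, SOCS genes and cofactors had higher median levels than ligands and chemokine receptors, by the authors' FPKM, a level per gene length. Median control levels were 72.1 FPKM for the 4 IRF2-binding cofactors, 13.0 FPKM for the 8 NF-kB subunits and inhibitors and 6.39 FPKM for the 10 SOCS genes. They were 2.09 FPKM for the 14 IRFs, 1.64 FPKM for the 8 STATs, 1.32 FPKM for the 10 TNF receptors and 0.946 FPKM for the 25 interleukin receptors. The 38 chemokines had a median of 0.731 FPKM, the 20 interleukins 0.319 FPKM, the 10 TNF ligands 0.325 FPKM, the 14 Toll-like receptors 0.0914 FPKM and the 17 chemokine receptors 0.0614 FPKM.

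Levels differed widely within families. Among the members of highest level were the transcriptional cofactors irf2bp2a (86.0 FPKM) and irf2bp2b (85.7 FPKM), the shared receptor chain il10rb (57.4 FPKM), the suppressor socs3a (30.3 FPKM) and the IkB genes nfkbiab (29.0 FPKM) and nfkbiaa (22.7 FPKM). Of the STATs, stat1a, which relays interferon signals, was at 12.6 FPKM and stat3, which relays interleukin 6 family signals, at 6.51 FPKM. Chemokines were led by cxcl12a (14.3 FPKM), a guidance cue of migrating cells, by cxcl14 (13.3 FPKM) and by ccl44 (10.96 FPKM).

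**Figure D1:**
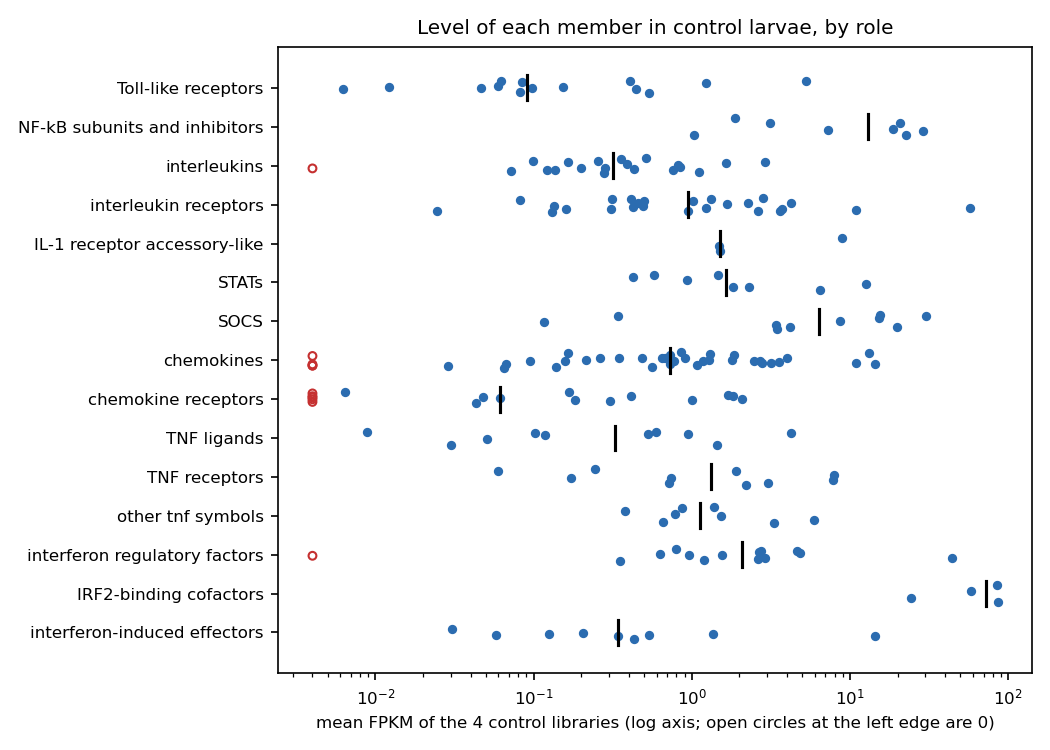
Mean FPKM of the 4 control libraries for each member (points, log axis), by role, with a line at the median of the role. Cofactors, NF-kB genes and SOCS genes lie to the right, with medians of 72.1, 13.0 and 6.39 FPKM, and Toll-like receptors and chemokine receptors lie to the left, with medians of 0.0914 and 0.0614 FPKM.

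Several classical inflammatory ligands had few reads. Over the 15 libraries tnfa held 7 reads, il10 held 8, il6 held 57 and cxcl8a, a neutrophil attractant, held 109. Other copies held more, with 198 reads for tnfb, 151 for cxcl8b.1 and 380 for cxcl8b.3. The macrophage cytokine il1b held 425 reads, and its level ran from 0.625 to 3.75 CPM. Levels in CPM follow the scaling of edgeR and are not divided by gene length. In all, 21 members, tnfa and il10 included, held fewer than 10 reads each.

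The symbol and the gene did not always match. Of the 198 IDs, 196 have an entry in the reference gene names, which call ENSDARG00000110357, listed as irf1b, TXNDC15, and ENSDARG00000075685, listed as tlr7, FRMPD4. These IDs were at 44.1 and 5.29 FPKM in the control, the highest levels of the IRFs and of the Toll-like receptors, so those leading values belong to genes whose family is in doubt. Without them, irf2 (4.87 FPKM) led the IRFs and tlr5b (1.22 FPKM), a flagellin receptor, the Toll-like receptors. The other irf1b ID, ENSDARG00000043249, keeps its name in both sources and is the irf1b described from here on. The IDs that the reference calls TXNDC15 and FRMPD4 stay in the counts and medians by role.

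No member passed an adjusted p of 0.05 in any of the 5 comparisons of counts, by edgeR's quasi-likelihood test with Benjamini-Hochberg adjustment, by DESeq2 or by limma-voom. The edgeR fit called 0 genes of any kind (background 0.0% in each comparison). DESeq2 called 0.24% of all genes in AVS high, 0.168% in AVS low, 0.0584% in Afid low, 0.0201% in AVS high against AVS low and 0.0% in AVS low against Afid low. At an unadjusted p under 0.05 in the edgeR fit were 5 of 115 tested members in AVS high, where 3.37% of all genes were higher and 5.39% lower. In AVS low there were 15 of 123, beside 5.14% and 4.97% of all genes, and in Afid low 9 of 124, beside 3.59% and 3.46%, each against control. The values below therefore describe libraries whose differences did not pass the correction.

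In AVS low, 12 members were higher and 3 lower at an unadjusted p under 0.05. The higher ones were 9.76% of the tested members, where 5.14% of all genes tested were higher at that level. The lower ones were 2.44% of members, where 4.97% of all genes were lower. The median log2 fold change of the members was 0.18, against −0.01 over all genes tested, and 84 of 123 members had a positive value (background 49.2%). Without control replicate 2 there were 8 higher and 2 lower, with a median of 0.13, and without AVS low replicate 2 there were 6 higher and 0 lower.

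By role, the 12 members that were higher in AVS low at an unadjusted p under 0.05 were 5 interleukin receptors, 3 IRFs, 3 NF-kB genes and 1 STAT. Of 20 tested interleukin receptors 18 were above 0, with a median log2 fold change of 0.35. Of 13 IRFs 10 were above 0, with a median of 0.50, and of 8 STATs 5 were, with a median of 0.29. Above 0 without a member at that p were 3 of 5 chemokine receptors (median 0.55), 4 of 5 interferon-induced effectors (0.38), 4 of 6 Toll-like receptors (0.20) and all 4 IRF2-binding cofactors (0.13). Of 9 SOCS genes 6 were above 0, with a median of 0.19. Chemokines were split, with 9 of 16 above 0 and a median of 0.00.

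**Figure D2:**
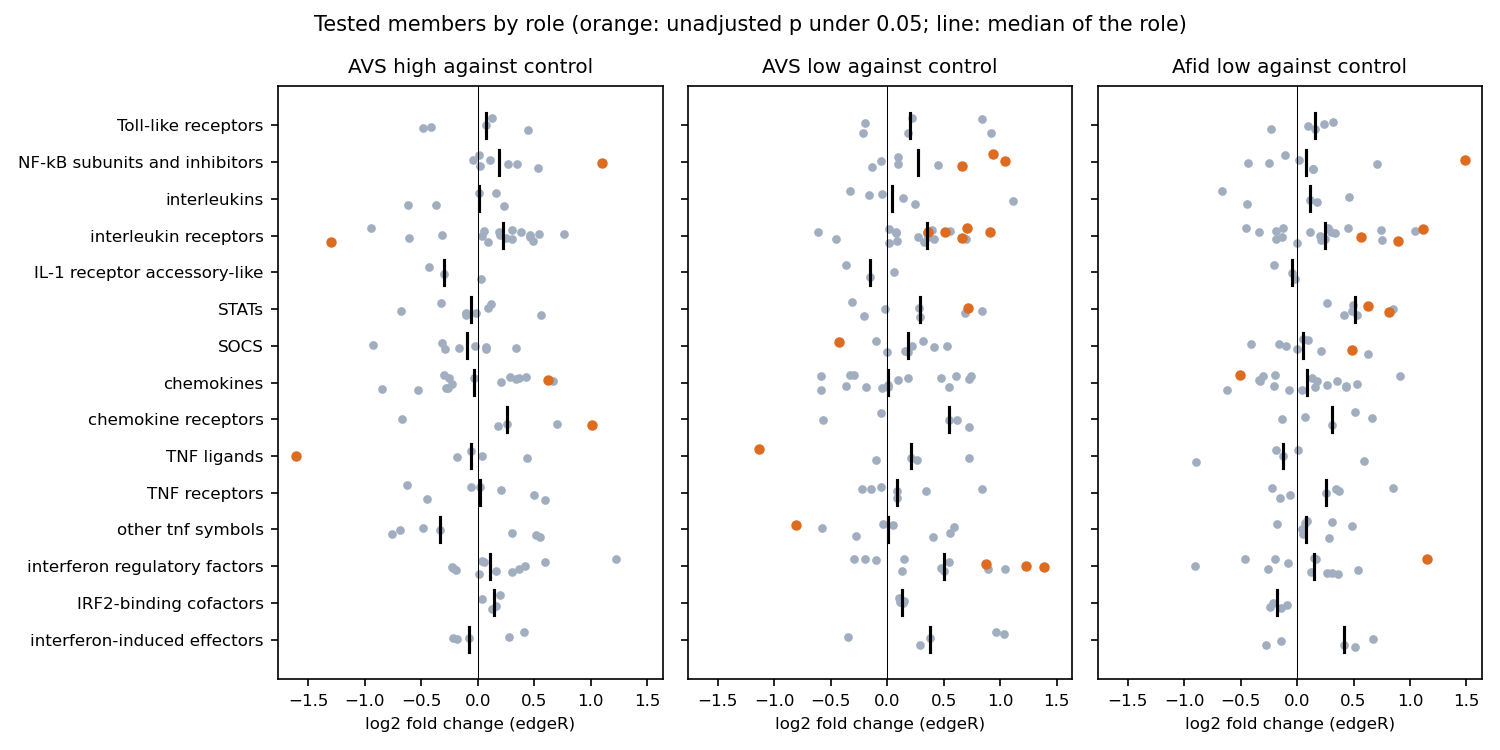
Log2 fold change of each tested member against control (edgeR), by role, in AVS high, AVS low and Afid low. Orange points have an unadjusted p under 0.05, and lines mark the median of each role. In AVS low the medians of IRFs (0.50) and interleukin receptors (0.35) lie right of 0, and in Afid low all 8 STATs do.

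Among the IRFs, irf1b, an interferon-inducible activator on chromosome 21 (45626136 to 45633317, plus strand, in coordinates of the deposited tables, whose build no source used here states), was at 24.9, 18.0, 13.7 and 15.4 CPM in the AVS low libraries. It was at 5.21, 3.67, 8.96 and 12.9 CPM in the controls. All AVS low libraries lay above all controls, with a log2 fold change of 1.23 (SE 0.35, edgeR adjusted p = 0.464).

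The factor irf3, which acts downstream of viral sensing in mammals, lies on chromosome 12 (4580372 to 4598237, minus strand). It was at 3.08, 3.69, 2.21 and 3.82 CPM in AVS low and 1.23, 0.459, 2.02 and 1.19 CPM in the control. The groups did not overlap, at a log2 fold change of 1.39 (SE 0.44, edgeR adjusted p = 0.464). Its level was low in every library, with 2 of the AVS high libraries (0.841 and 1.5 CPM) within the control range and 2 (4.71 and 4.15 CPM) above it.

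NF-kB genes gave 3 of the 12. The precursor subunit nfkb2, of the non-canonical branch, averaged 8.24 ± 1.52 CPM in AVS low and 4.30 ± 2.60 in the control (SD, n = 4 each). Its log2 fold change was 0.93 (SE 0.37). The precursor subunit nfkb1, of the canonical branch, was at 3.62, 12.8, 4.91 and 8.96 CPM in AVS low and 4.17, 1.77, 5.97 and 2.81 CPM in the control, so its groups overlapped and replicates 2 and 5 set its mean. The inhibitor nfkbie was at 25.2, 21.5, 16.6 and 17.2 CPM in AVS low and 12.6, 7.35, 14.5 and 16.4 CPM in the control, with no overlap.

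Of the interleukin receptors, il17rc, a chain of the interleukin 17 receptor, had the smallest p of all members in AVS low. It was at 17.7, 25.2, 20.5 and 25.0 CPM there and at 12.9, 13.3, 15.6 and 14.2 CPM in the control, a log2 fold change of 0.66 (SE 0.18, edgeR adjusted p = 0.464). The other 4 overlapped the control. They were il17rd, named in zebrafish as an antagonist of fibroblast growth factor signalling, with a log2 fold change of 0.51 (SE 0.19), il12rb2l with 0.70 (SE 0.26), the decoy-type receptor il13ra2 with 0.91 (SE 0.41) and il6st with 0.36 (SE 0.16). The last is gp130, the shared chain of the interleukin 6 family, at a mean of 118 ± 13.99 CPM in AVS low and 91.7 ± 14.5 in the control (SD, n = 4 each).

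Downstream of gp130, stat3 was at 22.8, 44.97, 32.8 and 45.9 CPM in AVS low and 26.1, 12, 20.8 and 30.4 CPM in the control. Replicate 1 lay inside the control range and the other 3 above it, with a log2 fold change of 0.71 (SE 0.29, edgeR adjusted p = 0.471). The STAT3 target socs3a did not differ beyond its spread, with a log2 fold change of −0.00 (SE 0.18).

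The 3 lower members were a suppressor, a ligand and a TNF-inducible gene. The suppressor socs1a, an inhibitor of Janus kinases, was at 19.5, 16.3, 17.1 and 15.1 CPM in AVS low and 21.0, 22.7, 20.5 and 27.3 CPM in the control, with no overlap and −0.43 (SE 0.17) on the log2 scale. The ligand tnfb averaged 0.766 ± 0.329 CPM in AVS low and 1.67 ± 0.600 in the control (SD, n = 4 each), which differ by −1.13 (SE 0.49) on the log2 scale. The gene tnfaip2a was at 5.76, 4.38, 14.97 and 12.2 CPM in AVS low and 13.8, 23.4, 14.6 and 13.1 CPM in the control, so replicates 1 and 2 were low and the other two within or near the controls.

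**Figure D3:**
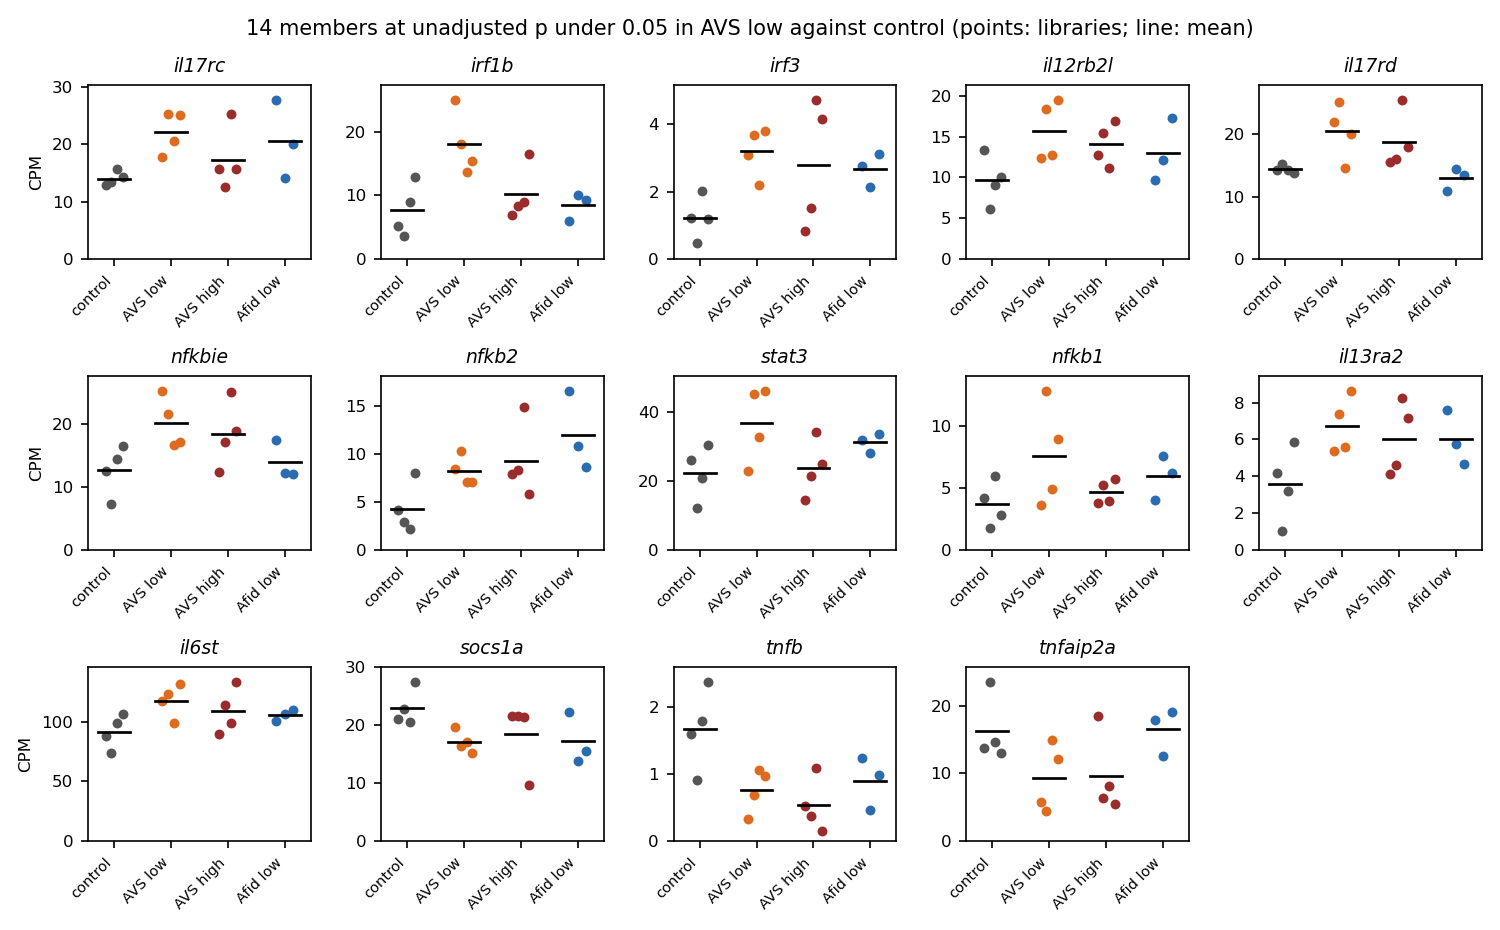
CPM in each library (points) and group mean (lines) of 14 of the 15 members at an unadjusted p under 0.05 in AVS low against control, with irf1b as ENSDARG00000043249. The AVS low and control points do not overlap for il17rc, irf1b, irf3, nfkbie and socs1a, and overlap for the other 9.

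In all, 9 of 123 tested members (7.32%) had AVS low and control libraries that did not overlap, where 4.35% of all genes tested did. The interferon-induced effectors had wide spread. In AVS low rsad2 was at 6.43, 2.50, 6.13 and 2.22 CPM against 1.47, 1.57, 1.34 and 4.44 CPM in the control, a log2 fold change of 0.96 (SE 0.49, edgeR adjusted p = 0.511). Control replicate 4 was the highest control for both rsad2 and isg15 (32.2 CPM), and isg15 had a log2 fold change of 0.29 (SE 0.43).

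Genes of the same pathways outside the rule were counted too. A list of 44 genes of Toll-like, interleukin 1 and NF-kB signalling held adaptors, kinases, NF-kB subunits, sensors and regulators. Of these, 41 were tested in AVS low, with a median log2 fold change of 0.19. At an unadjusted p under 0.05, 7 were higher and 0 lower (5.14% and 4.97% of all genes). The IkB kinase ikbkb had the smallest p, with a log2 fold change of 1.27 (SE 0.32, edgeR adjusted p = 0.464). Of 24 tested genes of the Janus kinase relay 1 was higher (jak3, 0.89, SE 0.37) and 2 lower at an unadjusted p under 0.05, with a median of 0.17. Of 6 tested genes of a list of interferons, interferon gamma receptors and crfb cytokine receptors, 2 were higher at that p. Among them was crfb12 with 0.83 (SE 0.34). Of 8 tested genes of RNA and DNA sensing, tbk1, mavs and adar included, 0 were higher at that p, while all 8 were above 0, with a median of 0.30. Of 20 tested interferon-induced and antigen presentation genes 11 were above 0, 2 were higher and 1 lower at that p, and the median was 0.09.

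Leukocyte marker lists differed in how they compared between AVS low and the control. Summed over 9 pan-leukocyte markers, levels were 121.6 to 149.1 CPM in AVS low and 93.0 to 116.5 CPM in the control, without overlap. The largest part of that sum was 1 gene, arhgdig, at 56.9 to 73.9 CPM in AVS low and 47.7 to 65.8 CPM in the control, with overlap. The separation of the sums therefore depends in large part on arhgdig. Of these 9 markers only 5 had a positive log2 fold change, with a median of 0.19, lcp1 being at 1.02 (SE 0.31) and tyrobp at −0.60 (SE 0.57). Of 16 tested macrophage markers, 15 had a positive log2 fold change, with a median of 0.56, and mpeg1.2, a macrophage perforin, had 1.43 (SE 0.39). The list holds 3 members of the present set, and its summed level overlapped between groups (553.4 to 701.9 CPM in AVS low, 502.4 to 566.2 CPM in the control). Most of that sum was 1 gene, lgmn, at 458.2 to 566.1 CPM in AVS low and 413.4 to 522.4 CPM in the control. The overlap of the sums therefore mostly describes lgmn. Neutrophil markers without the pancreatic enzyme cpa5 summed to 84.7 to 125.5 CPM against 44.2 to 99.6 CPM, and the thymocyte gene rag1 had a log2 fold change of 1.27 (SE 0.37). For lcp1, mpeg1.2 and rag1 control replicate 2 was the lowest control, and AVS low replicate 4 lay within the control range. Marker values are not given without control replicate 2. Fixed lists of 21 macrophage, 17 neutrophil and 24 lymphocyte genes gave 18, 16 and 19 IDs with counts, and none of these was at 0 in all libraries. Of them, 4 lymphocyte IDs and 1 neutrophil ID averaged under 3 reads per library. The neutrophil gene lyz did not exceed 0.625 CPM. In whole larvae, more cells of a type and more RNA per cell cannot be told apart, and the part of leukocyte markers in the member values was not tested. Intestine markers (19 of 21 above 0, median 0.54) also had mostly positive log2 fold changes in AVS low, and ribosomal protein genes mostly negative ones (3 of 74 above 0, median −0.43). The summed levels of both overlapped the control. They were 2409 to 3256 against 844.3 to 3200 CPM for intestine and 42830 to 85880 against 61120 to 126700 CPM for ribosomal proteins.

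At the higher dose the shares lay below the background. In AVS high 3 members (2.61%) were higher and 2 (1.74%) lower at an unadjusted p under 0.05, where 3.37% of all genes were higher and 5.39% lower. The median log2 fold change of the 115 tested members was 0.06, against −0.00 over all genes, with 69 above 0 (background 49.8%). Without control replicate 2, the counts were 1 higher and 3 lower. In all there were 11 when AVS high replicate 1 was left out, 3 when its replicate 4 was and 8 when control replicate 3 was. Exocrine pancreas markers (15 of 17, median 0.66) and intestine markers (17 of 21, median 0.39) mostly had positive log2 fold changes in AVS high. Of 24 neuron markers 3 were above 0 (median −0.24). Their summed levels overlapped the control, at 8208 to 25040 CPM against 2625 to 19230 CPM for pancreas. They were 2081 to 3621 against 844.3 to 3200 CPM for intestine and 3930 to 5059 against 4389 to 6651 CPM for neuron markers. Control replicate 2 set the lowest pancreas and intestine values and the highest neuron value of the controls. The part of these markers in the member values was not tested.

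On average both atorvastatin doses were above the control for nfkb2 and below it for tnfb. In AVS high, nfkb2 was at 7.88, 8.38, 14.98 and 5.89 CPM against 4.17, 2.89, 2.17 and 7.995 CPM in the control, a log2 fold change of 1.11 (SE 0.41, edgeR adjusted p = 0.492). Control replicate 4 overlapped the AVS high libraries. The ligand tnfb was at 0.526, 0.375, 1.09 and 0.151 CPM in AVS high and 1.59, 0.918, 1.79 and 2.37 CPM in the control, a log2 fold change of −1.61 (SE 0.59, edgeR adjusted p = 0.489).

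The chemokine receptor cxcr4a and the ligand gene cxcl12b belong to 1 signalling pair that guides cell migration. In AVS high, cxcr4a was at 2.94, 3.25, 3.03 and 4.68 CPM against 2.33, 0.656, 2.17 and 1.75 CPM in the control, without overlap (log2 fold change 1.01, SE 0.42, edgeR adjusted p = 0.527). Its ligand cxcl12b averaged 13.8 ± 4.56 CPM in AVS high and 8.95 ± 2.70 in the control (SD, n = 4 each), with overlap. The more abundant copies had smaller values, with log2 fold changes of 0.18 (SE 0.39) for cxcr4b and −0.28 (SE 0.30) for cxcl12a. The interleukin 23 receptor il23r was lower, at a mean of 0.695 ± 0.208 CPM against 1.72 ± 1.09 (SD, n = 4 each). In AVS high 3 of 115 members had groups without overlap (2.61%, background 5.19%).

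Set directly against AVS low in 1 fit of the 15 libraries, AVS high had 0 members higher and 8 lower of 133 at an unadjusted p under 0.05. This was 6.02% lower, where 4.05% of all genes were lower and 1.39% higher. The median log2 fold change was −0.15, against 0.01 over all genes, and 41 of 133 members were above 0 (background 51.1%). The count depended on single libraries, from 2 without AVS high replicate 4 to 14 without AVS low replicate 1. Of the AVS high libraries, leaving out replicate 3 gave 13, replicate 1 gave 5 and replicate 2 gave 4. Of the AVS low libraries, leaving out replicate 2 or 5 gave 4.

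The smallest p in this comparison was that of tnfsf10l, a gene of the TRAIL death ligand family, at 3.15, 2.38, 3.62 and 2.79 CPM in AVS high and 3.62, 5.88, 5.81 and 7.28 CPM in AVS low. Its log2 fold change was −0.91 (SE 0.31, edgeR adjusted p = 0.894). The transcription factors irf1b (−0.81, SE 0.34) and stat3 (−0.63, SE 0.28) were lower, as was the antiviral mxc (−1.25, SE 0.56). The chemokine cxcl19 had −0.98 (SE 0.44). The lymphoid factor irf4a (−1.58, SE 0.69), il23r (−1.32, SE 0.54) and il2rb (−1.96, SE 0.93) were all at means of 1.75 CPM or less in both groups. Only il23r of these had no overlap between the doses, as 1 of 133 members did (0.752%, background 2.03%).

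Of the pathway genes, cyldb, which encodes a deubiquitinase that limits NF-kB signalling, had the smallest p in this comparison, with a log2 fold change of −0.98 (SE 0.19, edgeR adjusted p = 0.541). All 6 tested Toll-like receptors and 11 of 13 tested IRFs were below 0. Both families include an ID whose family is in doubt. Macrophage markers moved with these values, with 2 of 17 above 0 and a median of −0.54. Their part in the member values was not tested.

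In Afid low, 8 members (6.45%) were higher and 1 (0.807%) lower at an unadjusted p under 0.05, where 3.59% of all genes were higher and 3.46% lower. The median log2 fold change of 124 tested members was 0.14, against 0.01 over all genes, and 78 were above 0 (background 50.8%). Without control replicate 2 the counts were 8 higher and 2 lower and the median was 0.06. Without Afid low replicate 1 there were 4 in all, without Afid low replicate 4 there were 5, and in a single fit of all 15 libraries there were 3.

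The smallest p was that of nfkb2, at 16.6, 10.9 and 8.70 CPM in Afid low and 4.17, 2.89, 2.17 and 7.995 CPM in the control. The groups did not overlap, at a log2 fold change of 1.48 (SE 0.40, edgeR adjusted p = 0.688). As in AVS low, irf3 and il17rc were higher, with log2 fold changes of 1.15 (SE 0.48) and 0.57 (SE 0.22). These comparisons share their controls, so agreement between them is not independent.

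Every STAT gene had a positive log2 fold change in Afid low, from 0.26 for stat1a to 0.85 for stat1b, with a median of 0.51. The prolactin and growth hormone relay stat5b was at 12.3, 13.0 and 14.4 CPM in Afid low and 9.37, 4.85, 8.96 and 11.2 CPM in the control, without overlap (log2 fold change 0.63, SE 0.27, edgeR adjusted p = 0.688). The interleukin 4 relay stat6 was at 13.6, 8.30 and 12.7 CPM against 7.84, 3.02, 6.64 and 8.93 CPM (log2 fold change 0.81, SE 0.34). Control replicate 2 was the lowest control for stat3, stat5b and stat6. Of the SOCS genes, socs2, a suppressor of growth hormone signalling, averaged 38.2 ± 3.87 CPM in Afid low (SD, n = 3). It averaged 27.5 ± 7.17 CPM in the control (SD, n = 4), a difference of 0.48 (SE 0.21) on the log2 scale. Of 26 tested genes of the Janus kinase relay 1 was higher and 1 lower at an unadjusted p under 0.05. Of all genes 3.59% were higher and 3.46% lower at that p. The higher gene was epor (1.28, SE 0.51) and the lower was cish (−0.42, SE 0.15).

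The interleukin 4 receptor gene il4r.1 stands under 2 IDs on chromosome 3, at 44048907 to 44060037 and 44002300 to 44012804, both on the minus strand. The symbol is shared, and no source used here says how reads were assigned between them. The first ID, ENSDARG00000102583, was at 7.71, 4.84 and 8.70 CPM in Afid low and 3.55, 4.40, 2.99 and 2.25 CPM in the control, without overlap (log2 fold change 1.12, SE 0.32, edgeR adjusted p = 0.688). The second, ENSDARG00000116052, was at 2.67, 1.15 and 2.76 CPM against 1.90, 2.03, 3.13 and 2.56 CPM. The interleukin 11 receptor il11ra averaged 6.504 ± 0.368 CPM in Afid low and 3.53 ± 1.33 in the control, without overlap, and the chemokine ccl44 was the 1 lower member, at 8.89 ± 0.895 against 12.7 ± 2.72 CPM (SD, n = 3 and 4).

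The inflammatory ligand il6 was under the count filter, but its Afid low libraries stood above the others. It was at 1.14, 1.15 and 0.566 CPM in Afid low and at 0.122, 0, 0.149 and 0.500 CPM in the control, and no AVS library exceeded 0.266 CPM. This gene was singled out after its values were seen. In the authors' deposited table its log2 fold change was 2.29 in Afid low (unadjusted p = 0.0204, adjusted p = 0.602). In their Afid high table it was −0.67 (unadjusted p = 0.639).

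In Afid low 6 of 124 members (4.84%) had groups without overlap, where 8.92% of all genes did. Of 41 tested pathway genes of Toll-like and NF-kB signalling, 26 were above 0 (background 50.8%). At an unadjusted p under 0.05, 4 were higher and 1 lower, where 3.59% of all genes were higher and 3.46% lower. The gene irak3, an inhibitory member of its kinase family, had a log2 fold change of 1.73 (SE 0.55). All 6 tested genes of the list of interferons, interferon gamma receptors and crfb cytokine receptors were above 0, with a median of 0.55. Of them, 2 were higher at an unadjusted p under 0.05. Of 18 tested interferon-induced and antigen presentation genes 15 were above 0, with a median of 0.38, and 0 were higher or lower at that p. The summed level of that list overlapped the control, at 248.7 to 456.4 CPM against 243.6 to 323.9 CPM. Of 15 tested macrophage markers 8 were above 0, with a median log2 fold change of 0.17. At an unadjusted p under 0.05, 2 of them were higher, among them spi1b (1.14, SE 0.44), and 0 lower. Of 14 tested neutrophil markers 5 were above 0, with a median of −0.05 and 0 at that p. Pan-leukocyte markers summed to 104.7 to 145.8 CPM against 93.0 to 116.5 CPM. Of this list, arhgdig alone was at 56.4 to 99.0 CPM against 47.7 to 65.8 CPM. Ribosomal protein genes mostly had negative log2 fold changes (3 of 74 above 0, median −0.57). Their summed levels overlapped the control, at 47650 to 75370 CPM against 61120 to 126700 CPM.

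At the matched dose of 0.1 µg/L, AVS low and Afid low were compared directly. Of 133 members 7 (5.26%) were higher in AVS low and 1 (0.752%) lower at an unadjusted p under 0.05, where 3.12% of all genes were higher and 3.61% lower. The median log2 fold change was 0.11, against 0.03 over all genes, and 78 of 133 members were above 0 (background 53.3%). The count was 3 without AVS low replicate 1 or without Afid low replicate 1, 4 without AVS low replicate 2 and 13 without AVS low replicate 4. The smallest p was that of il17rd, at 21.97, 25.2, 14.6 and 20.1 CPM in AVS low and 10.95, 14.4 and 13.4 CPM in Afid low, without overlap (log2 fold change 0.66, SE 0.21, edgeR adjusted p = 0.693).

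Also higher in AVS low than in Afid low were irf1b (1.09, SE 0.38), the low-level irf10 (1.80, SE 0.80) and irf2 (0.57, SE 0.25), the NF-kB inhibitors nfkbiz (0.57, SE 0.25) and nfkbiab (0.35, SE 0.16), and the cofactor gene irf2bpl (0.36, SE 0.17). The chemokine cxcl14 was lower (−0.62, SE 0.26). In this comparison 10 of 133 members (7.52%) had groups without overlap, beside a background of 7.44%. The STATs had a median of −0.43 in it. Of 9 pan-leukocyte markers 5 were above 0 in it, with a median of 0.13, lcp1 being at 1.05 (SE 0.33) and tyrobp at −1.12 (SE 0.56), and macrophage markers had a median of 0.30. Their part was not tested.

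**Figure D4:**
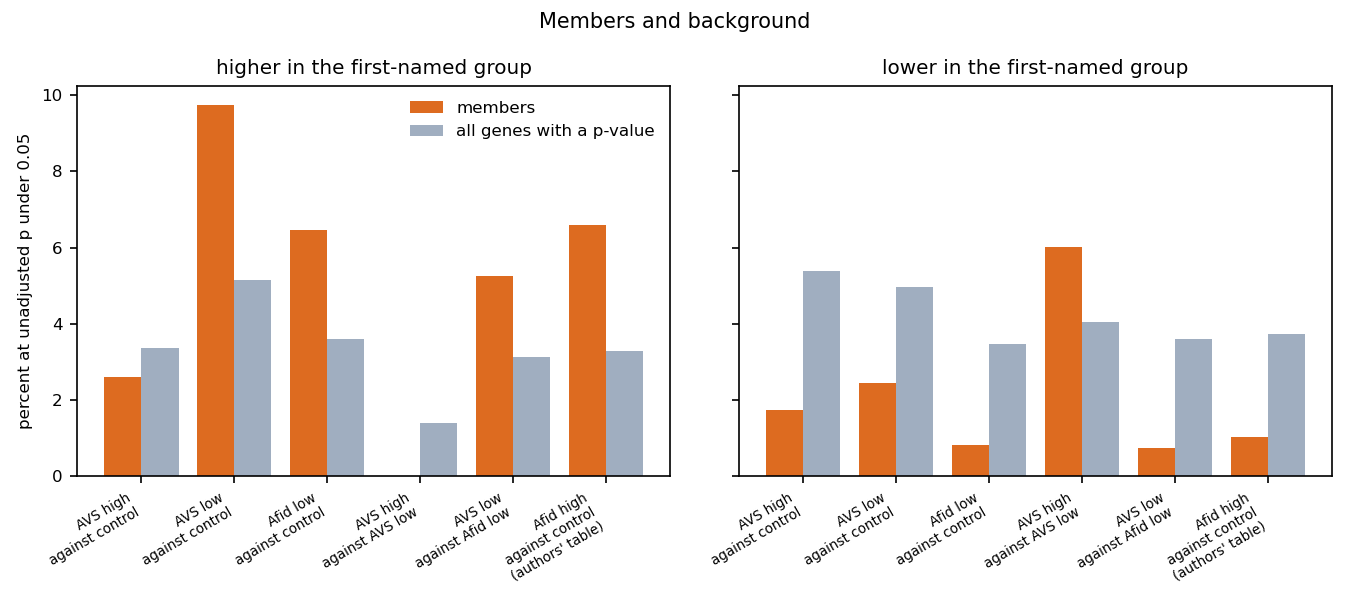
Percent of members (orange) and of all genes with a p-value (grey) at an unadjusted p under 0.05, higher on the left and lower on the right. In AVS low against control 9.76% of members are higher beside 5.14% of all genes, and in AVS high against AVS low 0.0% of members are higher and 6.02% lower.

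For Afid high, the authors' deposited table lists 197 entries whose symbols meet the rule. In it 0 of them had an adjusted p under 0.05, as 0.0348% of its genes had, and 187 carried an adjusted p of 1, which was read as not given. Of the 197, 13 (6.60%) were higher and 2 (1.02%) lower at the authors' unadjusted p under 0.05, where 3.30% of all their genes were higher and 3.74% lower. Their median log2 fold change was 0.27, against 0.03 over all genes, with 133 of 197 above 0. The share of all genes above 0 was not counted for that table. The 197 entries passed no read filter here. Of the 133 entries whose symbol was tested in a comparison of counts, 93 were above 0, with a median of 0.27.

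All 9 interferon-induced effectors had a positive log2 fold change in the authors' deposited Afid high table, with a median of 1.46, and 4 of them an unadjusted p under 0.05. These 4 were the Mx genes mxa, whose 3.59 was the highest value of the 9 (unadjusted p = 0.000225), mxf with 1.96 (unadjusted p = 0.0148), mxc with 1.57 (unadjusted p = 0.0300) and rsad2 with 1.14 (unadjusted p = 0.0373). Without an unadjusted p under 0.05 in the authors' deposited table were mxb (1.63), mxe (1.46), mxg (1.13), mxd (0.37) and isg15 (0.30). Mx proteins are GTPases that block viral replication in vertebrates.

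These genes had few reads where counts could be read. Over the 15 libraries of the other groups mxa held 59 reads, mxb 41, mxg 69, mxf 98 and mxe 182, so that a handful of reads separates the groups. The level of mxa was 0.268, 0.938, 0.654 and 0.178 CPM in AVS low, 0.571, 0.769 and 0.212 CPM in Afid low and 0.184, 0, 0.0746 and 0.0625 CPM in the control. AVS high was at 0.315, 0, 0.168 and 0.0755 CPM, and its range overlapped the control. In the authors' deposited tables its log2 fold change was 2.67 in AVS low (unadjusted p = 0.0193), 2.67 in Afid low (unadjusted p = 0.0373) and 0.80 in AVS high (unadjusted p = 0.638).

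Several Mx genes are neighbouring paralogs, among which the authors' counting may have split reads. Of these, mxa and mxb are on chromosome 1 (7562316 to 7570181 and 7574351 to 7603734, minus strand). On chromosome 9 mxc and mxe lie at 32805688 to 32813177 and 32824639 to 32837860 on the minus strand, and on chromosome 25 mxg and mxd lie at 19695652 to 19715136 and 19718504 to 19731255 on the plus strand.

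**Figure D5:**
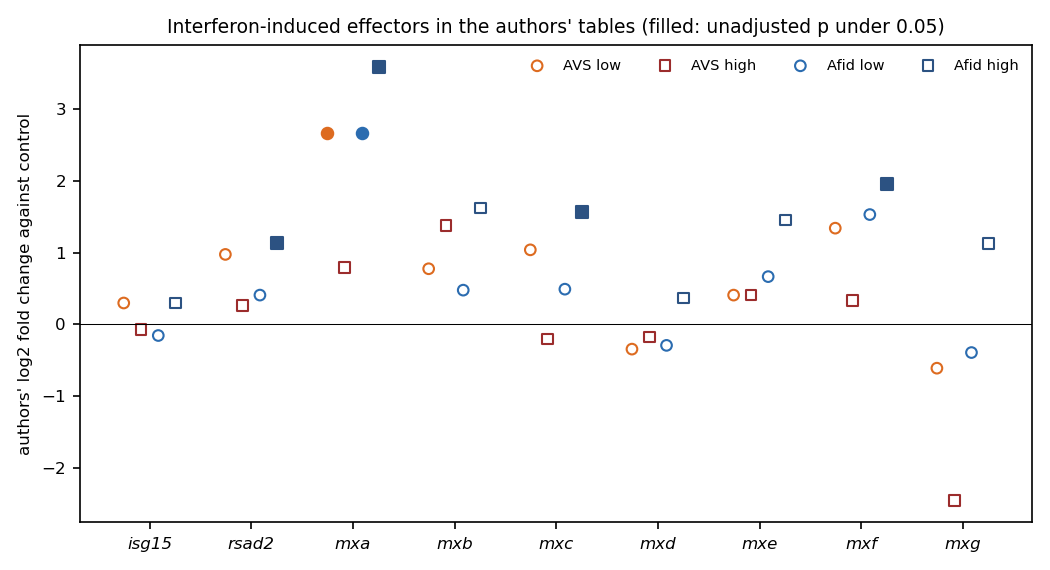
The authors' log2 fold change against control of the 9 interferon-induced effectors in each exposure, with filled symbols at an unadjusted p under 0.05. All 9 Afid high values lie above 0, from 0.30 for isg15 to 3.59 for mxa, and filled symbols outside Afid high are mxa in AVS low and Afid low.

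All 8 STATs were also above 0 in the authors' deposited Afid high table, with a median of 0.57. An adjusted p was read as not given for 187 of its 197 entries. Among the rest stat1a had the smallest adjusted p, 0.141, at a log2 fold change of 0.43. Its unadjusted p in the authors' deposited table was 0.00623, and mxa, nfkb2 and a line each of il4r.1 and irf1b had smaller ones. In that table stat5b (0.60) and stat6 (0.76) had values close to those of Afid low. Both doses were compared with the same control libraries, so this agreement of the STATs is not independent. The authors' deposited table further gave log2 fold changes of 1.23 for nfkb2 (unadjusted p = 0.00424), 1.2 for irf3, 0.64 for il17rc, 0.66 for the ubiquitin-editing NF-kB inhibitor tnfaip3 and 0.51 for cxcl12b. It gave −0.37 for irf2bp2a. The symbols il4r.1 (1.03 and 0.35) and irf1b (−0.66 and 0.89) each stand on 2 lines of that table without an ID, so the values cannot be assigned to 1 of their IDs. By role, 14 of 15 Toll-like receptor entries and 13 of 15 chemokine receptor entries were above 0 in the authors' deposited table, with 0 at an unadjusted p under 0.05. Some of these entries rest on few reads, as tlr4al held 10, ccr8.1 10 and cxcr2 4 over the 15 libraries with counts. In the control ccr7, ccr8.1 and cxcr2 were at 0 FPKM, so their fold change could only be above 0. As above, no share of all genes above 0 was counted. Chemokines were split in the authors' deposited table (19 of 38 above 0), and most TNF ligands (3 of 10 above 0, median −0.38) and all IRF2-binding cofactors (0 of 4 above 0, median −0.20) lay below 0.

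Side by side, nfkb2 was above the control in all 4 exposures. Its log2 fold change was 0.94 in AVS low, 1.12 in AVS high, 1.47 in Afid low and 1.23 in Afid high in the authors' deposited tables. In the same tables irf3 had 1.41, 1.23, 1.14 and 1.2. The 4 comparisons share the same control libraries, so agreement between the exposures is not independent for either gene. The lowest 2 of the 4 controls for nfkb2 were replicates 2 and 3, at 2.89 and 2.17 CPM.

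Some members varied more between replicates than between groups. By values seen, stat1a was at 24.1 CPM in AVS high replicate 2 and 24.8 CPM in AVS low replicate 1, and at 33.2 to 74.3 CPM in the other 13 libraries. In the same 2 libraries cxcl12a was lowest, at 15.4 and 15.5 CPM, against 28.5 to 61.8 CPM elsewhere. The flagellin receptor tlr5b was low in AVS high replicates 2 and 4 and in AVS low replicates 1 and 2 (1.44 to 1.69 CPM) and at 3.51 CPM or more in the other 11.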

How the data were processed

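Per the labels' protocols, poly(A) RNA of whole larvae was made into directional libraries. Per the submitters' processing notes, the authors used fastp, HISAT2, featureCounts and DESeq2. No source used here gives versions, strand setting or genome build. Per the file headers, 3 deposited tables hold raw read counts and FPKM per gene, and all 4 deposited tables give a log2 fold change, a p-value and its adjusted form from the authors' own comparison. A further 23 columns of normalized values of the same libraries were not used.

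Counts were tested in R 4.3.3 with edgeR 4.0.16 (quasi-likelihood, TMM, filterByExpr), each exposure against control on its own table, and AVS low against AVS high and Afid low in 1 fit of 15 libraries. P-values were adjusted over all genes tested at 0.05. DESeq2 1.42.0, limma-voom (limma 3.58.1), RLE scaling, no filter, a replicate block and leaving out each library were alternatives. No pair of replicate libraries agreed within sampling noise. Scripts were tested on simulated data. CPM uses TMM scaling of the 15 libraries. The SE is the log2 fold change over the root of edgeR's F. Members, lists and alternatives were chosen with earlier results of these data known. Named genes were up to 8 of smallest p per direction with a mean of at least 20 reads in a group, those leading each role, and a fixed set of well-known members, 77 IDs in all. Genes with fewer reads, and genes of the pathway lists, are named for their values. The values of 1 member are not reported here. Replicate numbers were not used to pair the libraries in the main fits.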

Additional observations from a re-analysis of the deposited data

Results flagged for a closer look

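Among 228 sets of replicate values tested for a library far from the rest, 8 stood out, and chance alone gives about 1 in 20. In the control, rsad2 was at 4.44 CPM in replicate 4 (next 1.57 CPM), tnfaip2a at 23.4 CPM in replicate 2 (next 14.6 CPM) and socs9 at 5.05 CPM in replicate 2 (next 7.18 CPM). In AVS high, socs1a was at 9.59 CPM in replicate 4 (next 21.3 CPM), il1fma at 1.94 CPM in replicate 3 (next 0.453 CPM), and the members took 0.177% of reads in replicate 2 (next 0.190%). In AVS low, ccl44 was at 13.3 CPM in replicate 4 (next 9.78 CPM) and cxcl20 at 0.876 CPM in replicate 2 (next 1.14 CPM).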

How the results depend on the processing

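In no alternative did a member pass an adjusted p of 0.05, where the smallest adjusted p of a member ran from 0.119 to 1.0 over the 5 comparisons. The 45 single-gene values at an unadjusted p under 0.05 were refitted in 652 combinations of gene and alternative. None changed sign and none was called. They were chosen by their p in the same libraries, so a kept sign is no independent support. DESeq2 called 61 genes in AVS high, 43 in AVS low, 15 in Afid low and 5 in AVS high against AVS low, where edgeR called 0, and the unfiltered AVS high fit called 2; none was a member. Counts of members at an unadjusted p under 0.05 moved by over 1.5 times as follows. For AVS high (5 members) it was 12 with DESeq2, 8 with limma-voom, 13 without a filter and 9 in the fit of 15 libraries. For Afid low (9) it was 3 in that fit, and for AVS high against AVS low (8) it was 5 with limma-voom. The cause was not tested. The share of all genes at that p is not given here for the alternatives, the replicate block or the fits that leave out a library. Their counts therefore cannot tell a change of the members from a change over all genes.

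With the replicate number as a block (replicate block), the count was 11 in AVS high, 6 in AVS low (8 on the same libraries without it, a fit added after seeing the data), 15 in Afid low, 5 in AVS high against AVS low and 13 in AVS low against Afid low, where 1 gene, no member, was called. Same-numbered libraries showed no common deviation, with correlations from −0.29 to 0.15. So few correlations per comparison cannot exclude a shared origin, and the labels do not say what the number stands for.

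Leaving out 1 library gave 3 to 11 members in AVS high, 6 to 21 in AVS low, 4 to 11 in Afid low, 2 to 14 in AVS high against AVS low and 3 to 13 in AVS low against Afid low. Genes called in Afid low ran from 0 to 1. Median log2 fold changes ran from −0.03 to 0.11, 0.13 to 0.24, 0.05 to 0.21, −0.23 to −0.09 and 0.04 to 0.14 in the same order. Leaving out the 2 IDs of another symbol, also added later, changed no count of members at an unadjusted p under 0.05. Counts by role were not redone without them. Members under about 1 CPM rest on few reads at this depth.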
